A study of Mus musculus with 6 samples.

Results

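The genes described here are 10 genes of the junctions that join heart muscle cells end to end. They were selected by name, with earlier results of these data known. The 10 are the 3 connexin genes of heart gap junctions (Gja1, Gja5 and Gjc1), 5 desmosome genes (Dsp, Pkp2, Jup, Dsg2 and Dsc2), and Cdh2 and Ctnna3, which encode a cadherin and a catenin of the same junctional region. Each symbol matched 1 gene, giving 10 of the 54532 genes in the table. All 10 were expressed highly enough to be tested, and 5 differed between knockout and control hearts, where 33.3% of all genes tested did. Gja1 and Pkp2 were higher in the knockout, and Dsp, Dsg2 and Jup were lower. The calls of Dsp and Dsg2 held whichever heart was left out, and those of Gja1, Pkp2 and Jup did not.

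Cardiomyocytes are coupled at the intercalated disc. Connexins assemble into channels that let ions pass directly from cell to cell, and connexin43, the product of Gja1, is the main connexin of working ventricular muscle. Desmosomes hold the cells together: the desmosomal cadherins desmoglein and desmocollin bridge the gap between cells, plakoglobin and plakophilin sit beneath them, and desmoplakin ties the complex to intermediate filaments. N-cadherin and the catenins link the same membrane to actin. Inherited mutations in the desmosome genes are a known cause of arrhythmogenic cardiomyopathy.

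The RNA came from hearts of 6 mice with loxP-flanked Mrps5 alleles (Mrps5 fl/fl), 3 controls without Cre (Ctrl) and 3 conditional knockouts that also carried MCM (Mrps5 fl/fl; MCM, here cKO). MCM is a MerCreMer transgene under the cardiomyocyte alpha-MHC promoter, whose Cre recombinase becomes active on tamoxifen. All 6 mice received tamoxifen by intraperitoneal injection at 45 mg/kg/day for 5 days from 8 weeks of age and were sampled 12 weeks after it, so no mouse was untreated. The effect of losing Mrps5, which encodes a protein of the mitochondrial ribosome, and that of active Cre cannot be told apart in this design, since no mouse carried MCM without the floxed alleles. The study's methods give littermates of 12 weeks of age and ventricular tissue, whereas the sample labels give 12 weeks after tamoxifen and heart.

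The libraries held 15989322 to 24875499 gene-assigned reads. Levels are in FPKM (fragments per kilobase of gene, scaled to a library size). The library size implied by the deposited FPKM was not the number of gene-assigned reads. It was 0.913 to 0.980 times that number in the Ctrl hearts and 1.06 times in the cKO hearts, so FPKM were scaled down more in cKO. Scaling to gene-assigned reads was not among the alternatives tried. Mrps5 was measured at 5.20, 6.45 and 6.33 FPKM in the Ctrl hearts and 1.12, 1.23 and 1.31 FPKM in the cKO hearts. No heart went against its label. The heart labelled cKO replicate 2 stood apart from the rest of its group, with a mean chi-square per gene of 43.1 and 40.8 against cKO replicates 1 and 3, where the other pairs of hearts within a group had 13.2 to 16.7. It was also the only heart with no reads from 4 Y-linked genes and with Xist above 1 FPKM (10.7 FPKM), the pattern of a female, although the study states that its mice were male. Without it, 2 of the 10 junction genes were higher and 3 lower, but Dsc2 took the place of Jup among the lower genes. Summed FPKM of 7 atrial markers ranged from 133 to 2089 in Ctrl and from 580 to 1700 in cKO, and without Nppa, a natriuretic peptide gene that is also a stress marker of ventricular muscle, from 30.1 to 1026 and from 111 to 762. Of 12944 genes tested with limma, 2110 were higher and 2205 lower in cKO at a Benjamini-Hochberg adjusted p under 0.05, with a median log2 fold change of -0.02. When the scale was set without mtDNA-encoded genes, 2649 were higher and 1621 lower.

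Of the genes that differed, 3 have an upstream window in the RefSeq promoter set, and the 250 bases before their RefSeq starts are given to show what precedes a gene that was higher (Gja1) and genes that were lower (Dsp and Jup). The windows are on GRCm38.p6 and written 5′ to 3′ on the gene's own strand. The RefSeq starts of Gja1 and Jup lie slightly upstream of the gene ends in the deposited table, which are given further on, and positions in the windows count from the RefSeq starts. Capitals mark matches, on either strand, to short consensus letters: TGANTCA for AP-1, GGGCGG for the GC box, CCAAT for the CCAAT box and AGGTGT for the T-box. The Gja1 window is chr10:56377050-56377299 on the plus strand, the Dsp window chr13:38151044-38151293 on the plus strand, and the Jup window chr11:100397791-100398040 on the minus strand.
Gja1: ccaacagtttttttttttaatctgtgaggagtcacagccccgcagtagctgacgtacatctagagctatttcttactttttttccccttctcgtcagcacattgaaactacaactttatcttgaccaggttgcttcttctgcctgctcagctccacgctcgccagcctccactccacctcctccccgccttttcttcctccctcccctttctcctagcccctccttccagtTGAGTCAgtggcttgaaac
Dsp: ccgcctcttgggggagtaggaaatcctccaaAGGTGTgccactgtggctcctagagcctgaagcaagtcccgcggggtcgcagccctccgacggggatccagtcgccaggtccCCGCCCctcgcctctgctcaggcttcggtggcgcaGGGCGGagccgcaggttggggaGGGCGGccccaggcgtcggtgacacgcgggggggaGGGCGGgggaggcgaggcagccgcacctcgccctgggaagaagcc
Jup: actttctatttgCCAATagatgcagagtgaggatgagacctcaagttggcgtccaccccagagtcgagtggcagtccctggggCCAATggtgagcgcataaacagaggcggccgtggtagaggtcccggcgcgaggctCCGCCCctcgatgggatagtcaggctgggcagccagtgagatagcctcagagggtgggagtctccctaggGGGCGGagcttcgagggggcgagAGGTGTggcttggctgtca
The Gja1 window held a single match, TGAGTCA, 19 to 13 bases before the start, a motif found in 6.75% of the 32851 windows of this length in the set. Dsp had 4 GC box matches and 1 T-box match in a window of 72.4% G and C, and Jup had 2 CCAAT box, 2 GC box and 1 T-box matches at 62.0%, against a median of 52.4% over all windows. GC box letters occurred in 32.7% of all windows, CCAAT in 33.9% and AGGTGT in 11.8%. The letters CACGTG (E-box) and TGATGNAA (C/EBP-ATF response element) and the TATA box and MEF2 consensus were not in these 3 windows. These matches are descriptions of the letters only; no binding was measured. In all, 5 of the 10 genes had a window in the set.

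Levels are given per heart in FPKM, which is scaled to gene length and so can be set side by side between genes. In Ctrl hearts desmoplakin RNA was the most abundant of the 10, at 143 ± 12.4 FPKM (SD, n = 3). Jup (39.98 ± 2.50) and Cdh2 (37.2 ± 3.40) came next with overlapping values, followed by Pkp2 (28.1 ± 2.50) and Gja1 (25.4 ± 2.54), which also overlapped. Dsg2, Dsc2, Gjc1, Ctnna3 and Gja5 followed without overlap between neighbours, from 13.3 ± 1.03 FPKM for Dsg2 down to 0.925 ± 0.447 for Gja5. In cKO hearts Dsp was still first, at 102 ± 7.46 FPKM, but Gja1 (40.3 ± 8.24) and Pkp2 (39.3 ± 5.47) stood above Jup (33.5 ± 0.584) and Cdh2 (31.2 ± 2.68). The ranges of Gja1, Pkp2, Jup and Cdh2 overlapped in part there: Gja1 overlapped each of the other 3 genes, whereas every Pkp2 value was above every Jup and Cdh2 value.

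**Figure D1:**
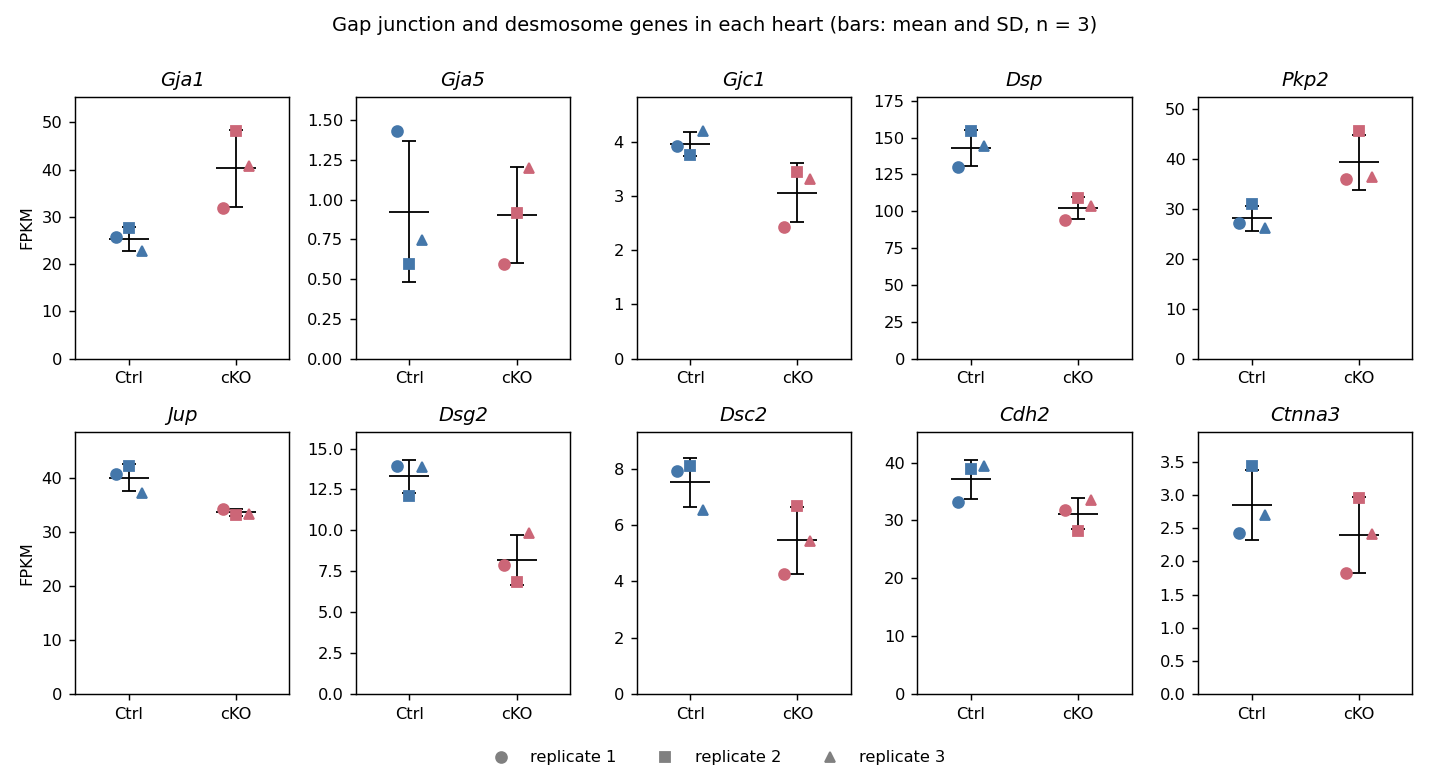
FPKM of each of the 10 genes (y axes, each starting at 0) in the 3 Ctrl and 3 cKO hearts (x axis). Points are hearts, with the symbol giving the replicate number, and black bars show the mean and SD. Gja1 and Pkp2 lie higher in every cKO heart, Dsp, Dsg2, Jup and Gjc1 lower in every cKO heart, and the other 4 genes overlap.

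Fold changes below compare cKO with Ctrl on the log2(FPKM + 1) scale, which understates changes of weakly expressed genes. Adjusted p-values are from limma with Benjamini-Hochberg adjustment over the 12944 genes tested. At the threshold of 0.05, 5 of the 10 genes (50%) were called, against 33.3% of all genes tested. In the 2 directions, 2 genes (20%) were higher against 16.3% of all genes, and 3 (30%) were lower against 17.0%. Values of the groups did not overlap for 6 of the 10 genes, where 51.2% of all genes tested did not overlap. Of these 6, 2 were higher (24.8% of all genes) and 4 lower (26.4%). The median log2 fold change of the 10 genes was -0.24. Nothing is read about the set from these shares. The number of higher genes was 0 of 10 when Ctrl replicate 1 or Ctrl replicate 3 was left out, or with the summed FPKM of all 7 atrial markers as a covariate, 2 with the same covariate without Nppa, and 1 without cKO replicate 3. In bulk tissue, fewer cells of a type and less RNA per cell cannot be told apart.

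Among the gap junction genes, Gja1 (chr10:56377330-56402513, plus strand, 2 exons in its longest coding transcript) was read at 25.7, 27.7 and 22.7 FPKM in the Ctrl hearts, in the order of their replicate numbers, and at 31.8, 48.2 and 40.7 FPKM in the cKO hearts. Every cKO heart was above every Ctrl heart, but the cKO hearts spread more widely, with replicate 1 nearest to the controls. The mean in cKO was 159% of that in Ctrl, with a log2 fold change of 0.63 ± 0.16 (SE, 95% confidence interval 0.26 to 1.00) and an adjusted p of 0.0216 (limma). Between 5032 and 11552 reads per library lay behind these values, so counting error was small beside the spread of hearts. The call was lost on leaving out Ctrl replicate 1 (adjusted p = 0.0573 by limma), Ctrl replicate 3 (0.0737) or cKO replicate 3 (0.0603), with log2 fold changes of 0.64, 0.55 and 0.61. Without cKO replicate 2, the highest heart, the log2 fold change was 0.49 and the adjusted p 0.0386 (limma). With the summed FPKM of all 7 atrial markers as a covariate they were 0.54 and 0.0731, and with the 6 markers other than Nppa 0.60 and 0.0379. Nppa alone was at 1062, 144 and 103 FPKM in Ctrl and 469, 1127 and 938 FPKM in cKO, so the first covariate differed between groups in part through Nppa.

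Gjc1 (chr11:102799579-102819700, minus strand), the gene of connexin45, which is found mainly in nodal and conduction tissue, was measured at 3.92, 3.75 and 4.20 FPKM in the Ctrl hearts and 2.43, 3.44 and 3.31 FPKM in the cKO hearts. The groups did not overlap, and cKO replicate 1 was the lowest. Its log2 fold change was -0.30 ± 0.11 (SE, 95% interval -0.56 to -0.03), with an adjusted p of 0.0847 (limma), short of the threshold. Between 206 and 508 reads were counted per library.

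Gja5 (chr3:96904693-97077416, plus strand) encodes connexin40, the connexin of atrial muscle, the conduction system and arterial endothelium. Ctrl hearts gave 1.43, 0.594 and 0.748 FPKM and cKO hearts 0.596, 0.917 and 1.20 FPKM, so the ranges lay almost on top of each other. The log2 fold change was within 0.01 of 0 (SE 0.19, 95% interval -0.45 to 0.44, adjusted p = 0.991 by limma), an interval that leaves room for a sizeable change in either direction. Only 58 to 173 reads were counted per library, and 165 exonic bases of Gja5 are shared with Gpr89 on the opposite strand, which was measured at a mean of 3.03 FPKM. Whether counting used the strand is not given in the sources used here, so reads in those bases cannot be assigned with certainty.

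The 3 highest Gja5 values came from the 3 hearts with the highest summed atrial markers. Leaving out Nppa, Ctrl replicate 1 held 1026 FPKM of the other 6 markers and had the highest Gja5 level, followed by cKO replicate 3 (762 FPKM) and cKO replicate 2 (232 FPKM). Among the other hearts the order ran the other way. Ctrl replicate 2 held 151 FPKM of these markers and 0.594 FPKM of Gja5, and cKO replicate 1 held 111 FPKM and 0.596 FPKM. Ctrl replicate 3 held the least of these markers, 30.1 FPKM, with 0.748 FPKM of Gja5. With Nppa included, cKO replicate 2 came to 1359 FPKM, of which Nppa was 1127 FPKM. Without Ctrl replicate 1 the log2 fold change of Gja5 was 0.18 (adjusted p = 0.441, limma). None of the 7 atrial markers passed the threshold between groups, and none was at 0 in all hearts. Conduction system markers, of which 4 of 9 were tested, summed to 20.1 to 24.7 FPKM in Ctrl and 14.9 to 17.1 FPKM in cKO, with Irx3 and Tbx3 lower. Arterial endothelium markers summed to 19.4 to 22.3 FPKM in Ctrl and 13.0 to 13.9 FPKM in cKO, with 4 of 6 lower. Their part in the Gja5 and Gjc1 values was not tested.

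**Figure D2:**
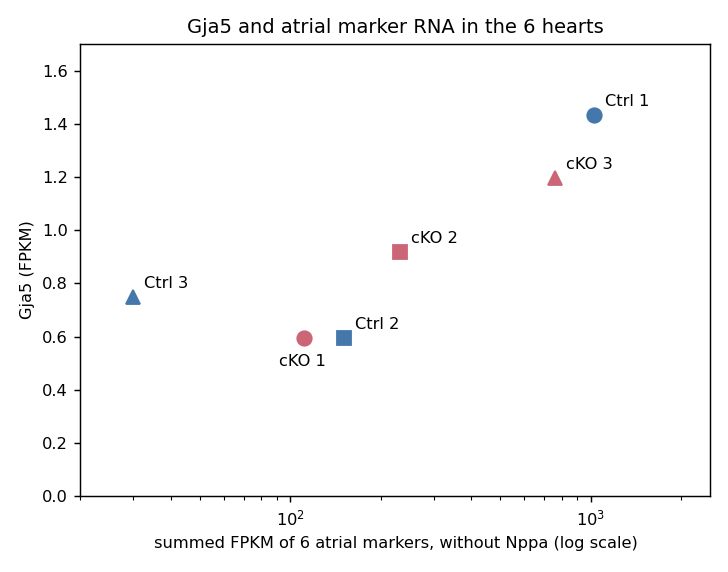
Gja5 FPKM (y axis) against the summed FPKM of 6 atrial markers, without Nppa (x axis, log scale), in the 6 hearts, labelled by group and replicate. The 3 hearts farthest right, cKO replicate 2 at 232 FPKM, cKO replicate 3 at 762 FPKM and Ctrl replicate 1 at 1026 FPKM, have the 3 highest Gja5 values, between 0.917 and 1.43 FPKM.

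Within each heart Gja1 took a larger share of the connexin RNA in cKO. Of the FPKM summed over all 20 connexin genes, Gja1 made up 57.8%, 63.0% and 57.6% in the Ctrl hearts and 69.3%, 78.4% and 75.3% in the cKO hearts. Gjc1 made up 9.33% ± 1.17 in Ctrl and 5.67% ± 0.41 in cKO (SD, n = 3 each). The ratio of Gjc1 to Gja1, which does not depend on how libraries were scaled, was 0.152, 0.135 and 0.185 in Ctrl and 0.0765, 0.0713 and 0.0811 in cKO, a mean in cKO at 48.4% of that in Ctrl. For the 2 shares and for this ratio the groups did not overlap, and the exact two-sided permutation test gave p = 0.1, the smallest that 3 against 3 hearts allow. The ratio of Gja5 to Gja1 was 0.0367 ± 0.0174 in Ctrl and 0.0224 ± 0.00606 in cKO, with overlapping hearts (exact permutation p = 0.2).

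Among the desmosome genes, Dsp (chr13:38151294-38198577, plus strand, 24 exons), which encodes desmoplakin, was measured at 130, 155 and 145 FPKM in the Ctrl hearts and 94.3, 109 and 103 FPKM in the cKO hearts. No cKO heart reached the lowest control. The cKO mean was 71.5% of the Ctrl mean, with a log2 fold change of -0.48 ± 0.10 (SE, 95% interval -0.71 to -0.25) and an adjusted p of 0.0103 (limma). Without cKO replicate 2 the log2 fold change was -0.53, with an adjusted p of 0.0137 (limma). The call was kept under each of 17 other ways of processing, with log2 fold changes of -0.56 to -0.39 and adjusted p from 0.00865 to 0.0489 (limma).

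Dsg2 encodes desmoglein-2, the desmoglein of cardiomyocytes, and lies on chromosome 18 (20558074 to 20604521, plus strand, 15 exons). It was read at 13.9, 12.1 and 13.9 FPKM in the Ctrl hearts and 7.87, 6.85 and 9.85 FPKM in the cKO hearts. The highest cKO heart stayed below the lowest control. With a cKO mean at 61.6% of the Ctrl mean, it had the largest decrease of the 10 genes, a log2 fold change of -0.65 ± 0.13 (SE, 95% interval -0.95 to -0.34, adjusted p = 0.0102 by limma). Without cKO replicate 2 it was -0.54, with an adjusted p of 0.0185 (limma). It too kept its call under all 17 alternatives, with log2 fold changes of -0.77 to -0.54 and adjusted p from 0.00641 to 0.0399 (limma).

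Dsc2, the gene of desmocollin-2 and the partner of Dsg2 in the desmosome, lies on chromosome 18 as well (20030633 to 20059554, minus strand). Its levels were 7.93, 8.09 and 6.52 FPKM in Ctrl and 4.27, 6.66 and 5.45 FPKM in cKO. Here cKO replicate 2 was above Ctrl replicate 3, so the groups overlapped. The log2 fold change of -0.41 ± 0.15 (SE) had an adjusted p of 0.0742 (limma), and without cKO replicate 2 it was -0.54 with an adjusted p of 0.0258 (limma). The ratio of Dsc2 to Dsg2 was 0.569 ± 0.0990 in Ctrl and 0.689 ± 0.245 in cKO (SD, n = 3, exact permutation p = 0.7), with cKO replicate 2 alone at 0.972.

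Jup (chr11:100368958-100397763, minus strand, 14 exons) encodes plakoglobin, which is shared by desmosomes and adherens junctions. It was measured at 40.6, 42.1 and 37.2 FPKM in Ctrl hearts and 34.2, 33.2 and 33.3 FPKM in cKO hearts, with the cKO hearts closer together than the controls. The cKO mean was 83.9% of the Ctrl mean, with a log2 fold change of -0.24 ± 0.07 (SE, 95% interval -0.42 to -0.07) and an adjusted p of 0.0407 (limma). This call was lost when any heart other than Ctrl replicate 3 was left out, with adjusted p of 0.116 and 0.126 without Ctrl replicates 1 and 2 and 0.0699, 0.0739 and 0.103 without cKO replicates 1, 2 and 3 (limma). With the replicate number as a block the adjusted p was 0.0759 (limma), and with the scale set without mtDNA-encoded genes the log2 fold change was -0.16 with an adjusted p of 0.134.

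Pkp2 (chr16:16213318-16272712, plus strand, 13 exons) was the only gene of the 5 desmosome genes with a higher mean FPKM in cKO. Among the others, Dsc2 was not past the threshold and the Jup call depended on single hearts. Plakophilin-2, its product, is the plakophilin of the cardiac desmosome. Its levels were 27.2, 31.0 and 26.2 FPKM in Ctrl and 36.0, 45.7 and 36.4 FPKM in cKO, so every cKO heart was above every control and cKO replicate 2 was the highest. The cKO mean was 140% of the Ctrl mean, with a log2 fold change of 0.47 ± 0.12 (SE, 95% interval 0.19 to 0.74) and an adjusted p of 0.0222 (limma). The call was lost without Ctrl replicate 1 (adjusted p = 0.0696 by limma) and without Ctrl replicate 3 (0.0766), at log2 fold changes of 0.44 and 0.42. Without cKO replicate 2 the log2 fold change was 0.36, with an adjusted p of 0.0327 (limma), and with the 7-marker atrial covariate 0.45, with an adjusted p of 0.0699. With Nppa left out of that covariate they were 0.46 and 0.0440.

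The balance among the 5 desmosome genes differed between the groups. Their summed level was 232 ± 14.4 FPKM in Ctrl and 189 ± 12.4 FPKM in cKO. Pkp2 made up 12.4%, 12.5% and 11.5% of that sum in the Ctrl hearts and 20.4%, 22.7% and 19.3% in the cKO hearts, without overlap. Dsp made up 61.6% ± 2.16 in Ctrl and 54.1% ± 0.76 in cKO, also without overlap. For the sum and these 2 shares the exact permutation p was 0.1. The share of Jup was 17.3% ± 1.13 in Ctrl and 17.8% ± 1.46 in cKO, with overlapping hearts (exact permutation p = 0.6).

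**Figure D3:**
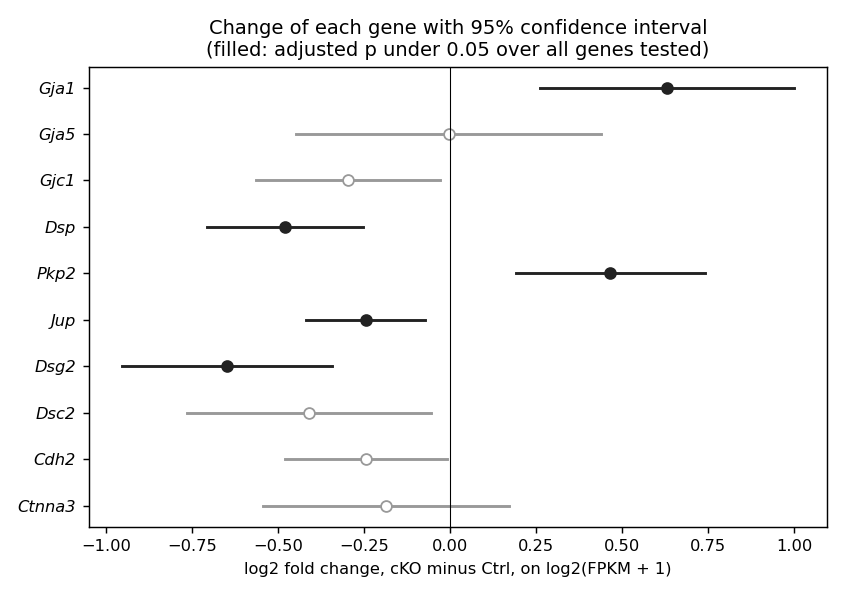
Log2 fold change of each of the 10 genes, cKO minus Ctrl on log2(FPKM + 1) (x axis), with 95% confidence intervals from limma. Filled points mark an adjusted p under 0.05 over all genes tested: Gja1 at 0.63 and Pkp2 at 0.47 to the right of 0, and Dsp at -0.48, Dsg2 at -0.65 and Jup at -0.24 to the left.

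At the adherens junction, Cdh2, on chromosome 18 (16588877 to 16809246, minus strand), encodes N-cadherin, the classical cadherin of cardiomyocytes. It was measured at 33.2, 38.8 and 39.4 FPKM in Ctrl and 31.9, 28.3 and 33.5 FPKM in cKO, where the highest cKO heart was just above the lowest control. The log2 fold change was -0.24 ± 0.10 (SE), with an adjusted p of 0.101 (limma). Ctnna3 (chr10:63430098-65003667, plus strand), the gene of alphaT-catenin, which binds plakophilin-2 at the cardiac disc, had 2.42, 3.44 and 2.71 FPKM in Ctrl and 1.82, 2.96 and 2.41 FPKM in cKO. These values overlapped broadly, with a log2 fold change of -0.19 ± 0.15 (SE, 95% interval -0.54 to 0.17, adjusted p = 0.375 by limma).

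Ratios to a related gene of the same heart were also compared. They reuse the FPKM given above and are not separate evidence for a change of these genes. Ctnna3 relative to Ctnna1, the gene of the ubiquitous alphaE-catenin, was 0.0219 ± 0.00367 in Ctrl and 0.0145 ± 0.00291 in cKO. Ctnna1 itself was at 130 ± 3.31 FPKM in Ctrl and 165 ± 14.4 FPKM in cKO. Pkp2 relative to Pkp4, a plakophilin family member found outside desmosomes, was 0.957, 1.06 and 0.868 in Ctrl and 1.33, 2.19 and 1.24 in cKO. Dsp relative to Vcl, the gene of vinculin, a linker of the adherens junction to actin, was 15.4 ± 1.17 in Ctrl and 9.27 ± 1.58 in cKO. None of these 3 ratios overlapped between groups, each with an exact permutation p of 0.1. The share of other gene pairs whose ratios do not overlap was not computed, so nothing is read from this count. Against Ctnnb1, the gene of beta-catenin, neither Jup (0.694 ± 0.0351 in Ctrl and 0.632 ± 0.0558 in cKO, exact permutation p = 0.3) nor Cdh2 (0.644 ± 0.0506 and 0.585 ± 0.0224, exact permutation p = 0.2) separated the groups. In all, 8 such ratios were compared, and since none can have a p below 0.1, none passes 0.05 with or without adjustment.

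**Figure D4:**
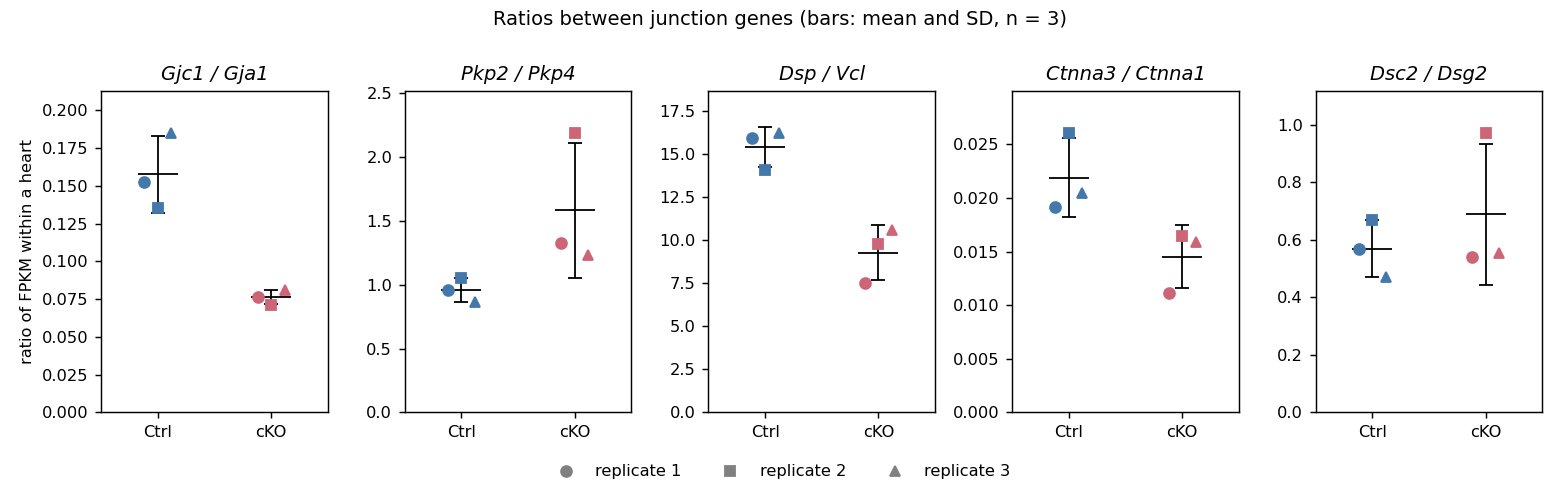
Ratios of FPKM between 2 junction genes of the same heart (y axes, each starting at 0) in the 3 Ctrl and 3 cKO hearts (x axis). Points are hearts and bars the mean and SD. Gjc1/Gja1, Dsp/Vcl and Ctnna3/Ctnna1 are lower and Pkp2/Pkp4 is higher in every cKO heart, while Dsc2/Dsg2 overlaps.

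Most cardiomyocyte markers were lower in cKO. Of 10, 7 were lower and none higher (limma), with Actc1, Myh6 and Mybpc3 not past the threshold, and their sum was 20272 to 24891 FPKM in Ctrl and 11770 to 19243 FPKM in cKO. The geometric mean of these 10 markers was 1296, 1521 and 1327 FPKM in Ctrl and 717, 975 and 879 FPKM in cKO. This denominator was itself lower in cKO, so a gene with unchanged FPKM comes out higher relative to it. Gja5, at 97.6% of Ctrl in FPKM, was at 152% on this scale, with overlapping hearts. Relative to the markers, 9 of the 10 junction genes had a higher mean in cKO by more than 10% and Dsg2 did not. The same share over all genes tested was not computed, so nothing is read from this count. Gja1 per 1000 FPKM of markers was 18.4 ± 1.39 in Ctrl and 46.7 ± 2.60 in cKO, a cKO mean at 254% of that in Ctrl, and Pkp2 stood at 227%. Dsp, lower on the FPKM scale, was at 116% on this one, with no overlap (103.7 ± 4.68 in Ctrl and 120.4 ± 10.1 in cKO). Jup was at 137% and also did not overlap, and Dsg2 was at 100%, with 9.72 ± 1.53 in Ctrl and 9.74 ± 2.35 in cKO. The exact permutation p was 0.1 for Gja1, Pkp2, Dsp and Jup and 1 for Dsg2. Gjc1, non-overlapping and lower in FPKM, was non-overlapping and higher here, at 123% (exact permutation p = 0.1). Means of Dsp, Jup, Gjc1, Dsc2, Cdh2, Ctnna3 and Gja5 thus lay on opposite sides of Ctrl on the FPKM scale and relative to these markers. Gja1 and Pkp2 were higher on both scales. The denominator was lower in every cKO heart than in any Ctrl heart. Any gene higher in FPKM without overlap is therefore also higher without overlap relative to the markers, and the second scale adds no support for these 2 genes.

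Other cells of the heart express some of these genes, so their markers are given beside them. Of 8 endothelial markers, 6 were lower in cKO, with sums of 329 to 347 FPKM in Ctrl and 190 to 209 FPKM in cKO. Fibroblast markers, of which 2 were higher and 1 lower of 7, summed to 154 to 178 FPKM in Ctrl and 143 to 156 FPKM in cKO. Smooth muscle markers (Acta2 higher and Mylk lower of 4 tested) summed to 17.7 to 31.4 FPKM in Ctrl and 29.6 to 55.6 FPKM in cKO. Most of that sum was Acta2, at 24.2, 14.3 and 17.5 FPKM in Ctrl and 31.3, 50.8 and 25.9 FPKM in cKO. Mesothelial markers summed to 2.47 to 10.1 FPKM in Ctrl and 7.46 to 9.85 FPKM in cKO, with Krt18 higher of 5 tested, and markers of other epithelia stayed below 0.1 FPKM in sum in every heart. Adipocyte markers (4.74 to 20.8 FPKM in Ctrl, 2.26 to 10.9 FPKM in cKO) and blood cell markers (529 to 911 FPKM and 378 to 758 FPKM) had no gene past the threshold. No marker of these lists was at 0 in all 6 hearts. The part of these cells in the junction gene values was not tested.

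A wider set of 93 genes of the disc was read from 6 lists, of which 60 genes were tested, 16 higher, 11 lower and 33 not past the threshold. The called share was 45%, against 33.3% of all genes tested, and the median log2 fold change 0.04. Among the 20 other connexins and pannexins only 3 passed the filter on low values. Panx1, the gene of a channel protein related in shape to connexins, rose by 0.51 on the log2 scale (0.485 ± 0.145 FPKM in Ctrl, 1.11 ± 0.168 FPKM in cKO, limma adjusted p = 0.0126). Gja3, the gene of connexin46, fell by 0.36 (6.05 ± 0.409 FPKM in Ctrl, 4.48 ± 0.265 FPKM in cKO, limma adjusted p = 0.0135). Gja4, the gene of connexin37 of arterial endothelium, overlapped between groups.

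Of 13 other desmosomal genes 3 were tested, as most belong to desmosomes of skin. Ppl was at 3.35 ± 0.748 FPKM in Ctrl and 1.79 ± 0.714 FPKM in cKO without overlap. Its log2 fold change was -0.66, short of the threshold (limma adjusted p = 0.0583). Pkp4 overlapped between groups. Perp, which encodes a tetraspan protein of desmosomes, was at 65.5 ± 2.93 FPKM in Ctrl and 82.2 ± 8.76 FPKM in cKO (log2 fold change 0.32, adjusted p = 0.0407, limma), a call lost without any of Ctrl replicates 1, 2 and 3 and cKO replicates 1 and 2 (adjusted p 0.0735 to 0.121). Of 16 adherens junction genes and catenins 15 were tested, with 3 higher, 1 lower and 11 not past the threshold. Cttn, the gene of the actin-binding protein cortactin, rose by 0.70 on the log2 scale (11.1 ± 0.963 FPKM in Ctrl, 18.8 ± 3.44 FPKM in cKO, limma adjusted p = 0.00843). Ctnnal1, which encodes alpha-catulin, fell by 0.95 (7.36 ± 1.78 FPKM in Ctrl, 3.39 ± 1.39 FPKM in cKO, limma adjusted p = 0.0241), a call lost without Ctrl replicate 1 or 3 or cKO replicate 1 or 2 (adjusted p 0.0525 to 0.0766). Actn1, an actinin gene of non-muscle cells, had an adjusted p of 0.0491 (limma) at a log2 fold change of 0.47 and lost the call without any heart but cKO replicate 3 (0.0692 to 0.127). Ctnna1, used above as a denominator, had a log2 fold change of 0.33 (adjusted p = 0.0242, limma), and lost the call without Ctrl replicate 1, 2 or 3 or cKO replicate 1 (0.0557 to 0.0782).

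The other cadherins listed included 4 tested genes of 8, of which 2 were lower and none higher. Cdh5, the endothelial VE-cadherin gene, fell by 0.58 on the log2 scale (42.7 ± 2.71 FPKM in Ctrl, 28.2 ± 1.52 FPKM in cKO, limma adjusted p = 0.00306), alongside the other endothelial markers. Cdh13, the gene of T-cadherin, was at 13.2 ± 0.529 FPKM in Ctrl and 8.54 ± 2.70 FPKM in cKO (log2 fold change -0.61, adjusted p = 0.0455), and only leaving out cKO replicate 2 kept this call (adjusted p 0.0865 to 0.121 without any other heart).

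The largest changes at the disc were outside the 10 genes, among 22 tested scaffold and channel genes, of which 7 were higher and 5 lower. Xirp2, which encodes an actin-binding Xin-repeat protein of the disc, was at 52.8, 59.7 and 38.6 FPKM in Ctrl and 224, 304 and 159 FPKM in cKO. Flnc, the gene of filamin C, an actin cross-linker of muscle, was at 59.7, 55.4 and 43.8 FPKM in Ctrl and 254, 295 and 166 FPKM in cKO. Both rose by more than 2 on the log2 scale (2.14 and 2.12, adjusted p = 0.00209 and 0.00148, limma), and in both cKO replicate 2 was the highest and cKO replicate 3 the lowest of its group. Scn4b, a beta subunit gene of the cardiac sodium channel, fell by 1.75 on the log2 scale (32.3 ± 5.20 FPKM in Ctrl, 9.48 ± 4.21 FPKM in cKO, limma adjusted p = 0.0081).

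Genes for the handling of connexin43 were all tested, 13 of 13, with 4 higher, 2 lower and 7 not past the threshold. Mapre1, which encodes EB1, a microtubule-tip protein through which connexin43 is delivered to the disc, was at 9.59, 9.78 and 9.83 FPKM in Ctrl and 14.4, 14.9 and 13.2 FPKM in cKO (log2 fold change 0.50, adjusted p = 0.00347, limma). The 2 lower genes were Dctn1 (29.3 ± 1.32 FPKM in Ctrl, 23.7 ± 1.09 FPKM in cKO, limma adjusted p = 0.0205) and Nedd4 (49.0 ± 1.75 FPKM in Ctrl, 40.0 ± 3.19 FPKM in cKO, limma adjusted p = 0.0349). Neither was followed under the alternatives. Actb, the beta-actin gene, and Camk2d, a kinase gene, had log2 fold changes of 0.47 and 0.38 (adjusted p = 0.0387 and 0.0176). Without 1 heart, Actb lost its call in 5 of 6 cases (all but Ctrl replicate 1, adjusted p 0.0501 to 0.119) and Camk2d without Ctrl replicate 1 or 3 (0.0599 and 0.0615).

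**Figure D5:**
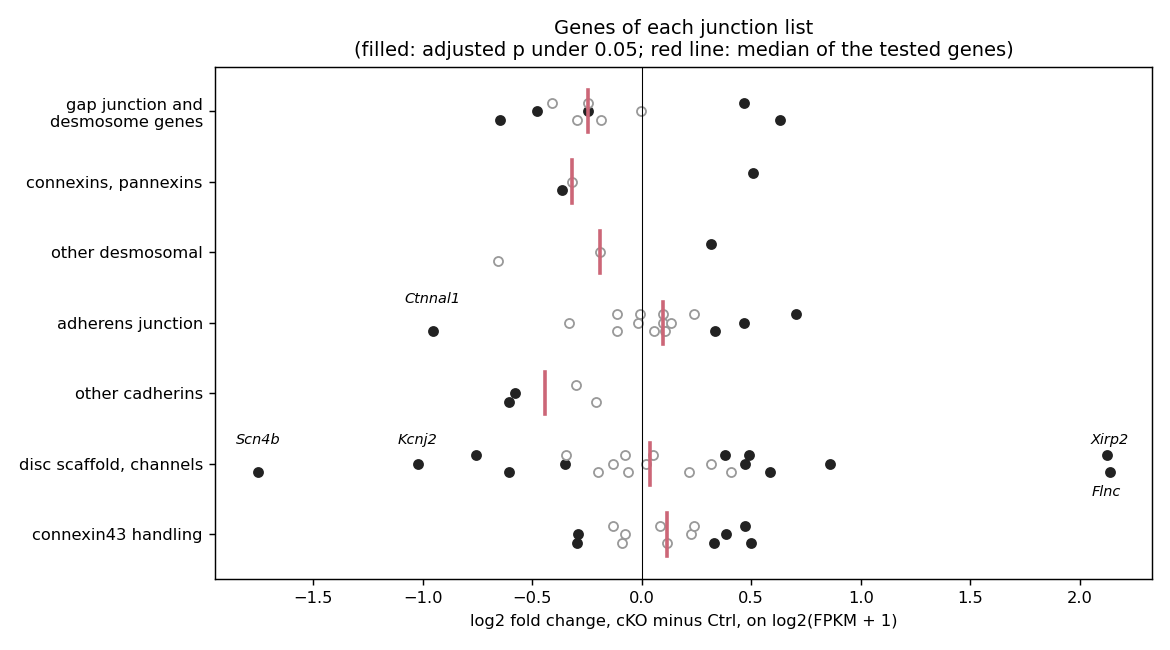
Log2 fold change, cKO minus Ctrl on log2(FPKM + 1) (x axis), of each tested gene in the 10 junction genes and the 6 other lists (y axis). Filled points passed an adjusted p of 0.05 and red lines mark list medians. The 10 junction genes lie between -0.65 and 0.63, while Xirp2 and Flnc lie beyond 2 and Scn4b below -1.7.

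Across the 6 hearts, each of the 10 genes was compared with 5512 protein-coding genes of at least 5 FPKM for the profile most like its own, measured as the root mean square difference of centred log2(FPKM + 1). Jup was closest to Stk25, at a difference of 0.015, and Dsp to Mrps36, at 0.026. Gja1 was most like Atad3a (0.080) and Pkp2 most like Xpo1 (0.043), while Dsg2 was most like Nudt7 (0.058). The remaining closest genes were Creb3l2 for Gja5, Mef2a for Gjc1, Chpt1 for Dsc2, Igf2r for Cdh2 and Hnrnph1 for Ctnna3, at 0.027 to 0.098. These differences are descriptions over 6 hearts and were not tested. Within their groups, cKO replicate 1 was the lowest heart for 7 of the 10 genes and cKO replicate 2 the highest for 6.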

How the data were processed

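Poly-A RNA of 3 Ctrl and 3 cKO mouse hearts was sequenced. Per the submitters' processing notes the authors aligned reads with HISAT2 2.0.5 and counted them per gene with featureCounts 1.5.0-p3. The authors' own test used DESeq2 1.16.1 per these notes, and the study's methods give a different version of it. The authors deposited FPKM values, and with them the gene length, a gene-level value of other kind. The strand setting of counting and the handling of multi-mapped reads are not given in the sources used here. The notes list mm9, but of 54409 identifiers shared with GENCODE mouse release M21 none differed in chromosome and 53499 had identical ends, so coordinates are on GRCm38. FPKM times length, divided by a step fitted per library, gave whole reads (within 0.01 of a read) for 100% of non-zero values. Depth was 15989322 to 24875499 reads, so counting error mattered mainly for Gja5. No pair of hearts agreed within counting noise, and cKO replicate 2 differed most from its group. Groups came from the sample titles, and every value column was mapped. The labels give separate mice as replicates only by number, so p-values measure the spread between these 6 samples.

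Genes averaging 0.5 FPKM or more over the 6 hearts were tested on log2(FPKM + 1) with limma 3.58.1 in R 4.3.3 (lmFit, eBayes with trend, two-sided, no covariates, Benjamini-Hochberg adjustment over 12944 genes, threshold 0.05). The fit was tested on simulated data first. Ratios and shares used the exact two-sided permutation test over hearts. Genes were named by rule: the 10 junction genes, Mrps5, up to 3 genes per list past the threshold with the largest change and at least 1 FPKM in the higher group, the denominators of the ratios, and the 2 closest profiles of each junction gene (1 of which is printed). Some other genes of the lists, among them Ppl, Dctn1 and Nedd4, were named outside this rule. The junction genes and all lists were chosen with earlier results of these data known. Replicate numbers did not pair the hearts (correlation of deviations -0.06, 0.17 and -0.01). The alternatives tried were pseudocount 0.1, no low-value filter, a filter at 1 FPKM, other scalings, eBayes without trend, voom on recovered reads, a replicate block and leaving out each heart. A joint omission of Ctrl replicate 1 and cKO replicate 3 and an atrial marker covariate, with and without Nppa, were added after seeing the data. Upstream windows came from RefSeq (GRCm38.p6).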

Additional observations from a re-analysis of the deposited data

How the results depend on the processing

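Dsp and Dsg2 kept direction and call under all 17 alternatives run. Of 126 comparisons of ratios 121 kept their sign; Dsg2 over the cardiomyocyte markers changed it in 4 and Dsc2 over Dsg2 in 1, without cKO replicate 2, and neither ratio had separated the groups. Without a filter on low values, fewer junction genes were higher (0), with adjusted p of 0.0560 for Gja1 (log2 fold change 0.63), 0.0511 for Pkp2 (0.47) and 0.0519 for Jup (-0.24), and 7 other disc genes were higher; more genes share the adjustment there. Jup was also lost under median-of-ratios scaling (-0.23), scaling without mtDNA-encoded genes (-0.16), voom (-0.22) and the replicate block (-0.24, adjusted p = 0.0759), which otherwise left 1874 genes higher and 1982 lower and changed no other junction gene's call; same-numbered hearts were not each other's closest in every case. Gja5 changed sign with a pseudocount of 0.1 (0.0082), median-of-ratios scaling (0.0023), scaling without mtDNA-encoded genes (0.033), voom (0.12) and without Ctrl replicate 1 (0.18) or cKO replicate 1 (0.12), never past the threshold; a minimum of 1 FPKM left it untested. Leaving out 1 heart gave 0 to 2 junction genes higher and 2 to 3 lower, log2 fold changes of 0.49 to 0.79 for Gja1, -0.13 to 0.18 for Gja5, 0.36 to 0.53 for Pkp2, -0.29 to -0.21 for Jup and -0.54 to -0.27 for Dsc2, 6 to 15 other disc genes higher and 7 to 10 lower, and 1396 to 1977 genes higher and 1423 to 2011 lower over the table. Without both Ctrl replicate 1 and cKO replicate 3, 0 junction genes were higher, with Gja1 at 0.62, Pkp2 at 0.49, Jup at -0.23 and Gja5 at 0.07, 4 other disc genes were higher and 6 lower, and 995 genes were higher and 1019 lower over the table. With the 7-marker atrial covariate, 0 junction genes were higher, with Gja1 at 0.54, Pkp2 at 0.45 and Jup at -0.26, 6 other disc genes were higher, and 1465 genes were lower over the table. Without Nppa in the covariate, Jup was at -0.25 and 9 other disc genes were higher. The Jup call was lost in 13 of the 17 alternatives, among them that joint omission and both covariates. Fewer hearts or degrees of freedom are part of the omissions and the covariate by construction; otherwise the cause was not tested. Among 21 other named genes, 293 of 356 comparisons kept direction and call, 63 lost the call and 0 reversed. Depth limits Gja5 most.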

Other observations

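Intermediate filament genes, which encode the cables that desmoplakin anchors, were looked at after their values had been seen. Des, the gene of desmin, the intermediate filament of muscle, was read at 598, 621 and 618 FPKM in Ctrl hearts and 993, 806 and 792 FPKM in cKO hearts, without overlap (log2 fold change 0.49, adjusted p = 0.0143 by limma). Krt18, which encodes a keratin of simple epithelia, was at 1.20, 0.368 and 0.259 FPKM in Ctrl and 3.74, 5.04 and 3.26 FPKM in cKO (log2 fold change 1.67, adjusted p = 0.00312 by limma), from 9 to 169 reads per library, and kept its call under all 17 alternatives. Its usual partner Krt8 was too low to be tested, at 0.383 ± 0.482 FPKM in Ctrl and 0.499 ± 0.179 FPKM in cKO (SD, n = 3). Both keratins are also on the mesothelial marker list, whose sum was highest in Ctrl replicate 1 (10.1 FPKM). Vim, Nes and Synm, further intermediate filament genes, overlapped between groups, with adjusted p of 0.283, 0.597 and 0.897 (limma). The Des call was lost without the filter on low values (adjusted p = 0.0528) and without both Ctrl replicate 1 and cKO replicate 3 (0.0739).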
